A study of Mus musculus with 18 samples.

Results

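The mitochondrial and death receptor arms of apoptosis were followed through 9 genes: the initiator caspases Casp8 and Casp9, the apoptosome scaffold Apaf1, the pore formers Bax and Bak1, the BH3-only gene Bcl2l11, and the antiapoptotic genes Bcl2, Bcl2l1 and Mcl1. Every probe set annotated to exactly 1 of these genes was taken, which gave 28 of the 45037 probe sets of the series and stood for 8 of the 9 genes. No probe set carried Bax alone in the annotation used, and Bax was not analysed here.

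In the mitochondrial arm, Bax and Bak1 open the outer mitochondrial membrane, and the released cytochrome c assembles with Apaf1 to activate caspase-9. Bcl2, Bcl-xL (from Bcl2l1) and Mcl1 hold the pore formers in check, and BH3-only proteins such as Bim (from Bcl2l11) relieve that block. The death receptor arm starts from receptors of the tumour necrosis factor family and activates caspase-8, which the caspase-like protein made from Cflar restrains. In the developing brain this machinery removes progenitors with damaged DNA and many surplus neurons.

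Mouse RNA at postnatal day 7 was hybridised to Affymetrix arrays in 3 sets, each of 3 knockout and 3 wild-type arrays. Knockout mice were conditional for Brca1, a gene of DNA double-strand break repair: the labels name Cre under nestin, a promoter of neural progenitors, an allele floxed around exons 5 to 13, and a null allele whose neo cassette lies inverted in exon 11. Controls were labelled wild type, with no further word on their alleles. Cortex was read on an A chip (23 member probe sets) and a B chip (5), and samples titled rest, sourced from brain, on an array with all 28; which tissue the word rest covers is not given. Signals below are linear and scaled within each set of 6 arrays. Log2 changes are knockout minus wild type on log2(signal + 16), and a call is a limma adjusted p (Benjamini-Hochberg, over all probe sets tested in that set) under 0.05. Levels were not compared between sets of arrays or between probe sets.

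Several features of the arrays bear on these values. Signals were listed for 54.0% to 58.0% of probe sets on A chip arrays, for 33.6% to 42.6% on B chip arrays and for 49.2% to 51.6% on rest arrays, and the other cells were blank. The Brca1 probe set listed on every array read 51.4, 44.0 and 61.4 in knockout cortex, against 38.0, 36.9 and 48.9 in wild-type cortex (log2 change 0.25, limma adjusted p = 0.496), and 118.5, 86.0 and 134.8 in knockout rest, against 101.8, 111.8 and 114.3 in wild-type rest (0.03, limma adjusted p = 0.978). Which exons it reads is not given, so it does not check the labels. The Y-linked Eif2s3y was listed on knockout replicates 1 and 2 of each set and on no other array, so genotype and sex partly coincide. Adding this marker as a term sets knockout replicate 3 alone against the wild type. Neuronal markers were listed in all 3 sets, while of 8 cerebellar markers Atoh1 and Barhl1 were blank on all A chip arrays and 3 were tested there. Of 8 markers of cortical excitatory neurons Emx1 was blank on all rest arrays and 5 were tested there, so these lists do not separate the tissues fully. Summed cerebellar signal on wild-type replicate 3 was 1300.5 on the A chip, against 733.3 and 764.3 on wild-type replicates 1 and 2. It was 559.0 on the B chip (178.0 and 256.1), from 1 marker, and 8534.8 on rest arrays (3849.0 and 3177.6). On the A chip 1 of the 3 cerebellar markers tested was called lower in knockout, against 86 of all 12065 probe sets. The knockout sums there, 765.4 to 909.3, overlapped the wild-type sums. On rest arrays 0 of 7 cerebellar markers rose or fell. Whether the tissue taken differed was not tested.

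The RefSeq promoters of Casp8, the only member called, and of Mcl1, which had the next lowest p, are shown to set their start regions side by side. Each runs from 250 bases before to 50 bases after the start on the plus strand of GRCm38.p6, at chr1:58802252-58802551 for Casp8 and chr3:95658471-95658770 for Mcl1. Capitals mark a CCAAT box (CCAAT) or a GC box (GGGCGG), searched on both strands.
Casp8: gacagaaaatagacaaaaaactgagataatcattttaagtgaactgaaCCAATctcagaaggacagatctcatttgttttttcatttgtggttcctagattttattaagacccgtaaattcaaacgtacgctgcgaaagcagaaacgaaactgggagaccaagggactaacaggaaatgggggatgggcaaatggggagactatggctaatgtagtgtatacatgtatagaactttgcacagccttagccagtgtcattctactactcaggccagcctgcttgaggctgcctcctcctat
Mcl1: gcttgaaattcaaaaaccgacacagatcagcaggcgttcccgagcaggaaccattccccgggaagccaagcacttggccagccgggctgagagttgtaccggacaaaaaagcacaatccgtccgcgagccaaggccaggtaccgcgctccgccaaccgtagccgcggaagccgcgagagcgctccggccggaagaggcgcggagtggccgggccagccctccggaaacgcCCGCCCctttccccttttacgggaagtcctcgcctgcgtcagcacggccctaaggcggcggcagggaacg
The Casp8 stretch holds 1 CCAAT box and 0 GC boxes, and 42.0% of its bases are G or C. The Mcl1 stretch holds 1 GC box, in reverse complement, and 65.7% of its bases are G or C, against a median of 52.7% over all 32851 promoters of that length. A GC box is found in 35.7% of those promoters and a CCAAT box in 37.4%. TATAAA, also searched on both strands, is in neither stretch and in 13.6% of promoters. At the first start listed, Casp9 has 4 GC boxes, Apaf1 3, Bcl2 7, Bcl2l11 3, and Bak1 and Bcl2l1 0.

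Casp8 rose in knockout cortex, and no other member passed the test in any set. Of 16 member probe sets tested on the A chip, 1 rose and 0 fell, against 3.02% called and 2.30% called up among all 12065 tested. On the B chip limma called 0 of 2 (0.281% of all), and 0 had an unadjusted p under 0.05 (7.39% of all). On rest arrays limma called 0 of 20 (0.313% of all), and 1 had an unadjusted p under 0.05 (10.5% of all). On the A chip 3 of 16 did (15.7% of all). There 13 of 16 log2 changes lay above 0 (47.9% of all), with a median of 0.07, against -0.01 over all tested. On rest arrays 8 of 20 lay above 0 (50.2% of all), with a median of -0.03, against 0.00 over all tested. Several of these probe sets read the same gene, and Mcl1 alone gave 6 of the 16.

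**Figure D1:**
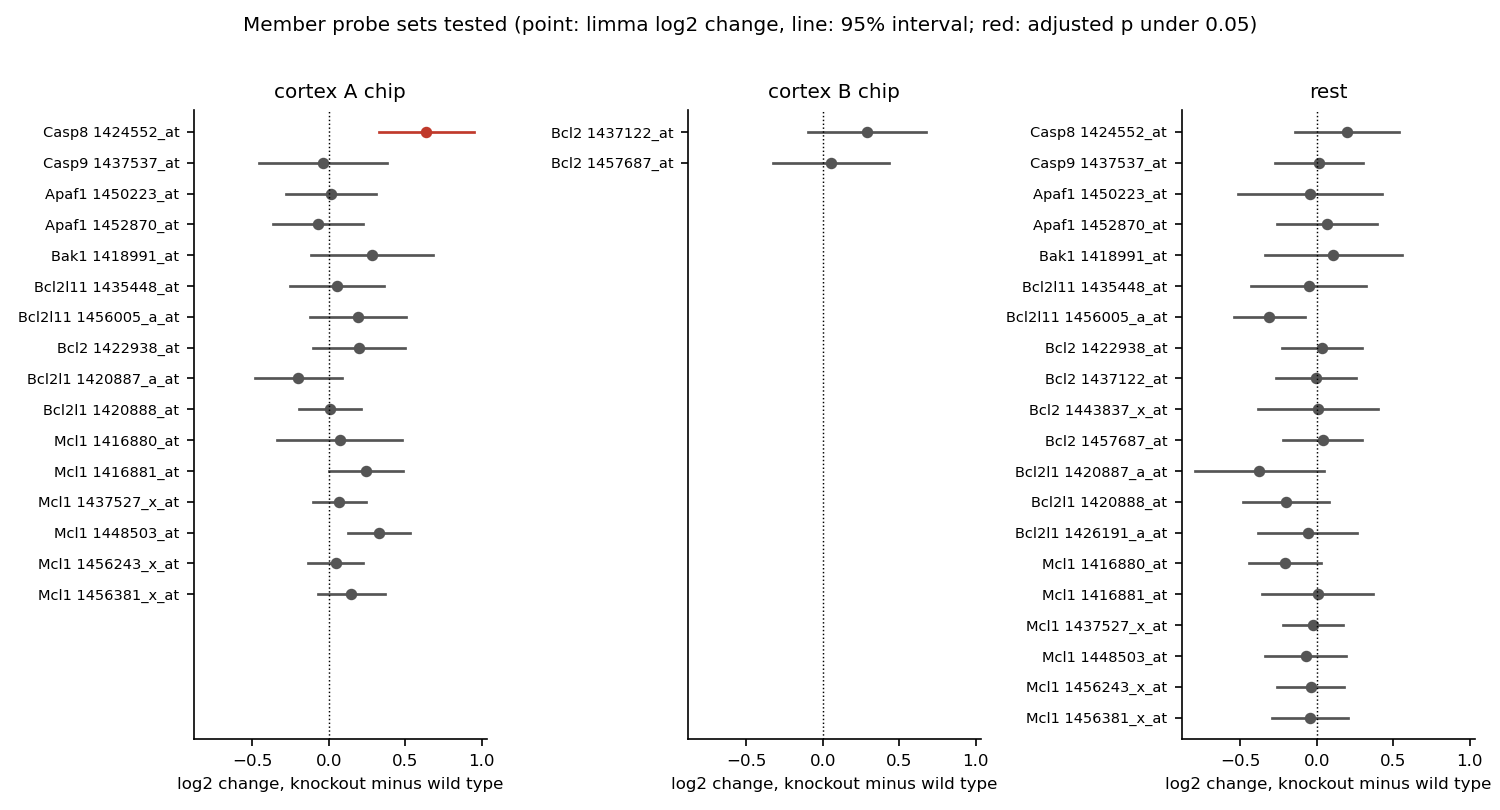
Log2 changes (x axis, knockout minus wild type) of every member probe set tested, 1 row each, on the cortex A chip, the cortex B chip and the rest arrays; points are limma estimates, lines 95% intervals, and red marks an adjusted p under 0.05. Casp8 on the A chip, at 0.64, is the only one called.

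Casp8, the initiator caspase of the death receptor arm, was read by a single probe set, 1424552_at. Its signal was 83.6, 100.6 and 99.1 in knockout cortex, against 59.3, 48.1 and 57.5 in wild-type cortex. All 3 knockout arrays lay above all 3 wild-type arrays, as in 11.0% of all probe sets listed on all 6 A chip arrays. Knockout replicate 3, the only knockout array without Eif2s3y, was among the 3. Means were 94.5 ± 9.42 in knockout and 55.0 ± 6.03 in wild type (SD, n = 3 each). This was a log2 change of 0.64 (SE 0.14, 95% interval 0.33 to 0.95, limma adjusted p = 0.0351), or 1.56-fold (1.25 to 1.93) in signal + 16. With that offset the fold is smaller than the ratio of the means. The log2 change was 0.77 with an offset of 1 and 0.41 with an offset of 64. It was positive in all 16 alternatives. The call was lost with quantile normalization (limma adjusted p = 0.0959), with blanks at a low signal (0.0672), and with the sex-marker term, where the log2 change was 0.70 (limma adjusted p = 0.232). It was also lost with a replicate block (limma adjusted p = 0.0781). The same held without knockout replicate 2 (limma adjusted p = 0.14), knockout replicate 3 (0.115), wild-type replicate 1 (0.0764), wild-type replicate 2 (0.11) or wild-type replicate 3 (0.064). Rest arrays gave 137.1, 100.2 and 131.0 in knockout rest, against 104.6, 109.1 and 98.8 in wild-type rest. There knockout replicate 2 lay within the wild-type range, so the groups overlapped (log2 change 0.20, 95% interval -0.14 to 0.54, limma adjusted p = 0.718).

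Genes of cells outside the neural lineage rose on the same A chip arrays. The marker lists were chosen with earlier results of these data known. Over all 12065 probe sets tested on the A chip, limma called 278 up and 86 down. Of 13 microglia and macrophage markers tested, from a list of 15, 9 rose and 0 fell, and 10 of them summed to 4358.1 to 4904.3 in knockout and 2637.0 to 3000.7 in wild-type cortex. Of 9 mural and meningeal markers tested, from a list of 12, 7 rose, with sums of 6445.6 to 7764.7 in knockout and 2506.2 to 2874.2 in wild-type cortex. Neither sum overlapped between genotypes, and neither did Casp8. The endothelial, astrocyte and oligodendrocyte sums given below did not overlap either, and the oligodendrocyte sum was the lower in knockout. A knockout group wholly above the wild type was found for 11.0% of all probe sets listed on every A chip array. That share is of single probe sets, and no such share was taken for sums of several. Of 8 endothelial markers tested 3 rose, with sums of 1827.9 to 2003.9 in knockout and 1192.5 to 1426.0 in wild-type cortex, and of 7 astrocyte markers 3 rose, with sums of 5713.2 to 7110.8 in knockout and 4428.7 to 5170.2 in wild-type cortex. Acta2 of the mural list and Pecam1 of the endothelial list were blank on all A chip arrays. Sums of 8 neuronal markers overlapped, at 11177.1 to 11476.0 in knockout and 10887.4 to 12196.8 in wild-type cortex, and none of the 8 was called by limma. Of 5 oligodendrocyte markers tested 4 fell, with sums of 1502.0 to 1976.5 in knockout and 3350.2 to 4152.6 in wild-type cortex. Of all 21407 probe sets tested on rest arrays limma called 31 up and 36 down. Rest arrays had 0 of 12 microglia and macrophage markers called by limma, and their sums did not overlap, at 5027.7 to 5993.2 in knockout and 4144.2 to 4670.4 in wild-type rest. Of 11 mural and meningeal markers tested on rest arrays 5 rose, and the sums of the 11 did not overlap, at 10479.5 to 10688.8 in knockout and 4226.5 to 7723.1 in wild-type rest. How often the knockout group lay wholly higher among all rest probe sets is not given here. Casp8 had a log2 change of 0.20 on rest arrays and was not called. In whole tissue, more cells of a type and more RNA per cell cannot be told apart, and the part of these cell types in the Casp8 value was not tested.

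**Figure D2:**
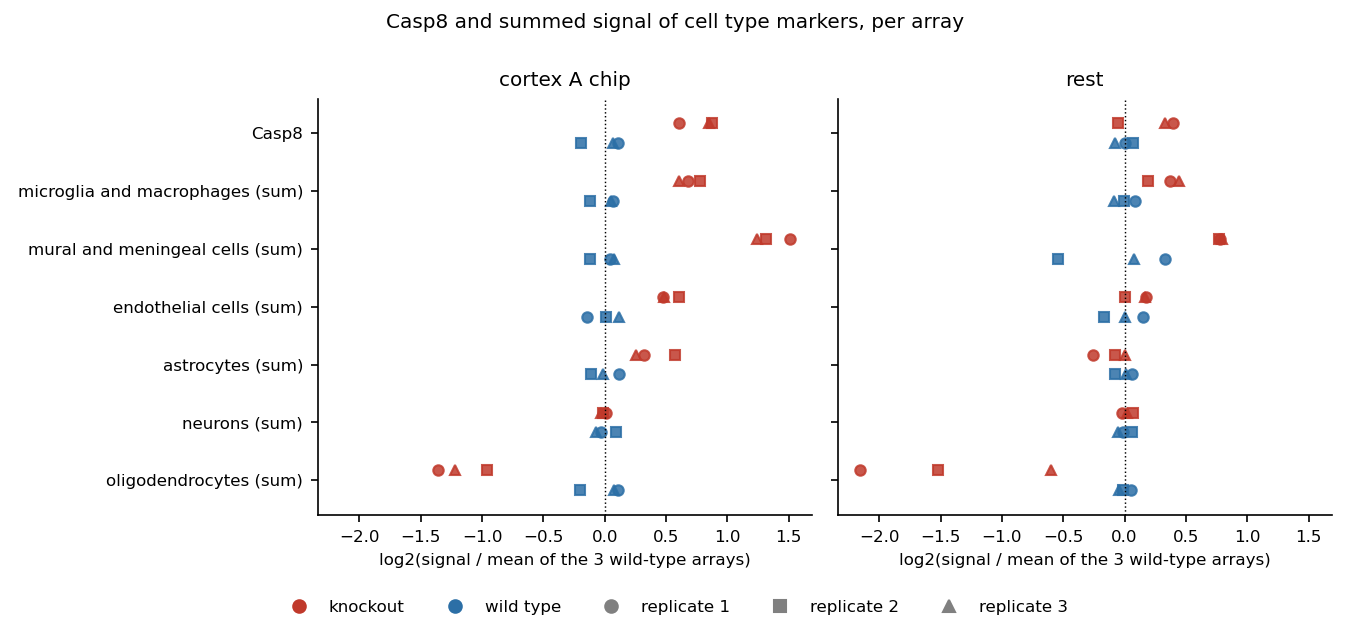
Casp8 signal and summed signal of cell type markers on each array of the cortex A chip (left) and the rest arrays (right), as log2 of the ratio to the mean of the 3 wild-type arrays of that set (x axis); colours give genotype and symbols the replicate. On the A chip the knockout arrays lie right of the wild-type arrays for Casp8 and for the microglial, mural and meningeal, endothelial and astrocyte sums, and left of them for the oligodendrocyte sum.

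The genes closest to Casp8 in pattern were Coq7, Ramp2 and Mmp14. They had the highest Pearson correlation with Casp8, 0.941, 0.929 and 0.919, over 12 arrays (6 of the A chip and 6 rest arrays, each set centred on its mean) among 3535 candidate genes. Within the A chip it was 0.948, 0.977 and 0.967, and within the rest arrays 0.913, 0.702 and 0.719. These arrays share the genotype contrast, and the labels do not say whether cortex and rest came from the same animals. Coq7, an enzyme of ubiquinone synthesis, read 396.7, 421.4 and 422.4 in knockout cortex, against 312.8, 329.0 and 329.0 in wild-type cortex. Ramp2, a partner protein of the adrenomedullin receptor, read 577.0, 582.7 and 604.0 in knockout cortex, against 429.9, 377.5 and 396.8 in wild-type cortex. Mmp14, a membrane-bound matrix metalloproteinase, read 334.6, 332.3 and 356.2 in knockout cortex, against 250.3, 188.8 and 219.3 in wild-type cortex. All 3 had every knockout array above every wild-type array in cortex, as did 11.0% of all probe sets listed on all 6 A chip arrays. Ramp2 (limma adjusted p = 0.00571) and Mmp14 (0.0154) were called there and Coq7 was not (0.0655). Because the 3 genes were picked for likeness to Casp8 on these same arrays, their separation and calls add no support to the Casp8 result. On rest arrays Ramp2 alone of the 3 had groups that did not overlap (log2 change 0.19, limma adjusted p = 0.446). The share of all rest probe sets with the knockout group wholly higher is not given here.

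**Figure D3:**
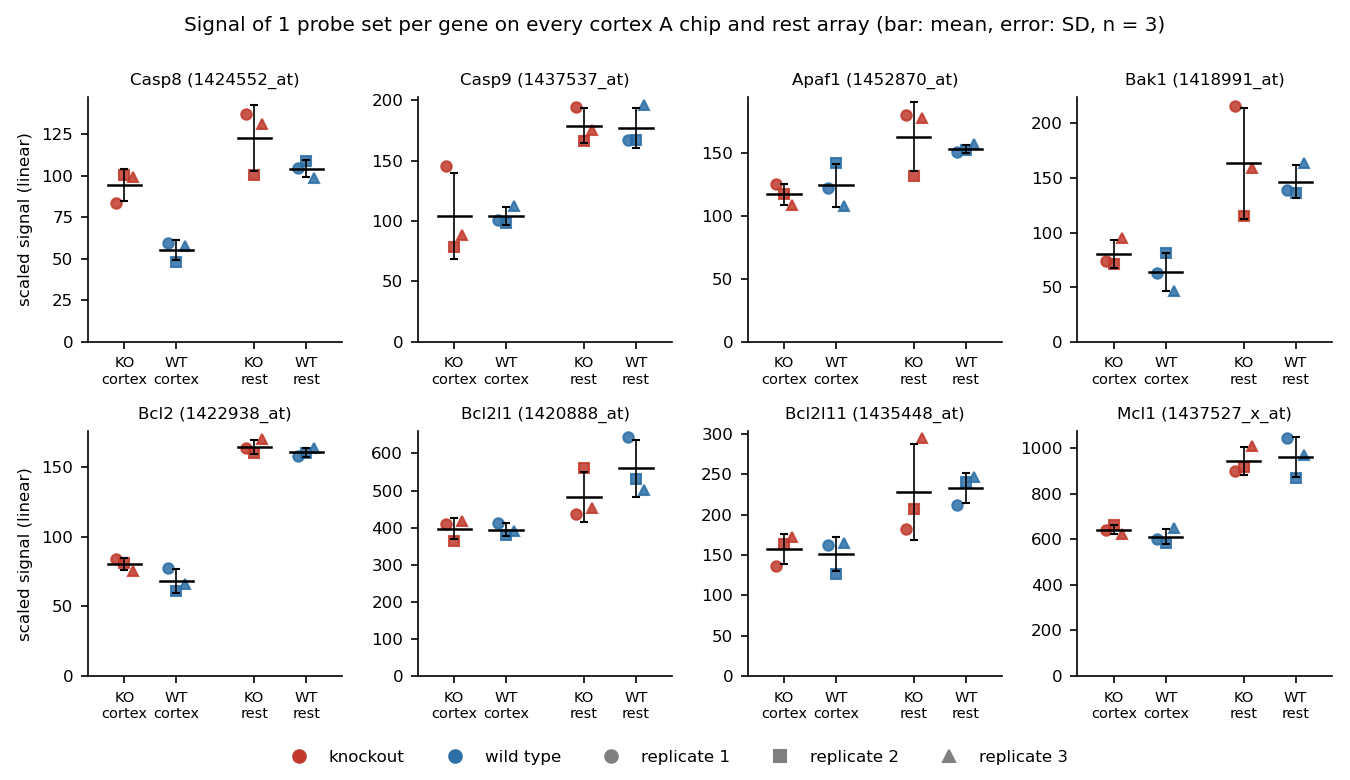
Scaled signal (y axis, linear) of 1 probe set per member gene, that with the highest mean among those listed on all A chip arrays, on each knockout (KO) and wild-type (WT) array of the cortex A chip and the rest arrays; bars are means and error bars SD (n = 3). Of the probe sets shown, Casp8 in cortex alone has all knockout arrays above all wild-type arrays, and levels are not comparable between cortex and rest or between genes.

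Casp9, the initiator caspase of the mitochondrial arm, was tested through 1437537_at. It read 145.4, 78.8 and 88.5 in knockout cortex, against 101.3, 98.3 and 112.9 in wild-type cortex. Knockout replicate 1 was the highest of the 6 arrays and the other two knockout arrays were the lowest, with means of 104.2 ± 36.0 in knockout and 104.2 ± 7.68 in wild type (SD, n = 3 each) and a log2 change of -0.04 (95% interval -0.46 to 0.38, limma adjusted p = 0.95). Rest arrays gave 194.8, 166.6 and 175.6 in knockout rest, against 167.5, 167.4 and 196.3 in wild-type rest, with overlapping groups (log2 change 0.02, 95% interval -0.27 to 0.30, limma adjusted p = 0.983). Probe set 1426125_a_at was blank in cortex and was listed on 1 rest array, knockout replicate 1, at 84.3. The B chip probe set, 1457816_at, was blank on all arrays that carry it.

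Apaf1, which binds caspase-9 in the apoptosome, was tested through 2 probe sets. The first, 1452870_at, read 125.6, 117.4 and 108.5 in knockout cortex, against 122.2, 142.3 and 108.3 in wild-type cortex, and its groups overlapped (log2 change -0.07, 95% interval -0.36 to 0.23, limma adjusted p = 0.853). Rest arrays gave 179.9, 131.5 and 177.6 in knockout rest, against 150.9, 152.2 and 157.1 in wild-type rest. The knockout arrays spread more widely there, with means of 163.0 ± 27.3 in knockout and 153.4 ± 3.3 in wild type (SD, n = 3 each) and a log2 change of 0.07 (limma adjusted p = 0.918). The other, 1450223_at, had log2 changes of 0.01 in cortex and -0.05 in rest (limma adjusted p = 0.976 and 0.964). The groups overlapped for both probe sets in both tissues.

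Bak1 was the only pore former measured. Probe set 1418991_at read 73.9, 71.5 and 94.9 in knockout cortex, against 63.2, 81.2 and 46.7 in wild-type cortex. Wild-type replicate 2 lay above knockout replicates 1 and 2, so the groups overlapped (log2 change 0.28, 95% interval -0.12 to 0.68, limma adjusted p = 0.5). Rest arrays gave 215.7, 115.0 and 159.5 in knockout rest, against 138.9, 136.5 and 163.8 in wild-type rest (log2 change 0.11, 95% interval -0.34 to 0.56, limma adjusted p = 0.901). Knockout replicates 1 and 2 were the highest and the lowest of these 6. A second Bak1 probe set, 1425716_s_at, was blank throughout.

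Bcl2l11 encodes Bim, a BH3-only protein that acts when neurons lose trophic support. Its probe set listed on all A chip arrays, 1435448_at, read 136.0, 163.9 and 171.8 in knockout cortex, against 162.0, 126.7 and 165.3 in wild-type cortex, with overlapping groups (log2 change 0.05, 95% interval -0.25 to 0.36, limma adjusted p = 0.897). Probe set 1456005_a_at read 243.9 and 278.0 in knockout cortex, against 239.5 and 213.7 in wild-type cortex, with no value for knockout replicate 1 and wild-type replicate 3. Its log2 change of 0.19 (95% interval -0.13 to 0.51, limma adjusted p = 0.576) rests on 2 arrays of each genotype. On rest arrays the same probe set read 271.1, 331.9 and 298.4 in knockout rest, against 374.2, 372.5 and 380.3 in wild-type rest. There all knockout arrays lay below all wild-type arrays, with means of 300.5 ± 30.5 in knockout and 375.6 ± 4.1 in wild type (SD, n = 3 each), but the log2 change of -0.31 (SE 0.10, 95% interval -0.54 to -0.08) did not pass (unadjusted p = 0.0138, limma adjusted p = 0.32). It was 1 of 19 member probe sets listed on all 6 rest arrays and the only one of them with the knockout group wholly lower, against 8.19% of all such probe sets. Rest arrays gave 1435448_at a log2 change of -0.05 (limma adjusted p = 0.946), with 294.7 on knockout replicate 3 as the highest of 6. The 3 remaining Bcl2l11 probe sets were blank on at least 3 of 6 arrays in cortex and in rest.

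Bcl2, the founding antiapoptotic member of the family, was read by 1 probe set on the A chip, 4 on the B chip and 5 on the rest arrays. On the A chip 1422938_at read 83.6, 81.4 and 75.6 in knockout cortex, against 77.2, 60.8 and 66.3 in wild-type cortex. Wild-type replicate 1 lay above knockout replicate 3, so the groups overlapped (log2 change 0.20, 95% interval -0.10 to 0.50, limma adjusted p = 0.541). On the B chip 1437122_at read 293.1, 244.9 and 254.8 in knockout cortex, against 216.4, 218.2 and 203.5 in wild-type cortex. These groups did not overlap, as in 7.57% of all B chip probe sets listed on all 6 arrays, and the change did not pass (log2 change 0.29, 95% interval -0.09 to 0.68, limma adjusted p = 0.817). Another B chip probe set, 1457687_at, was blank on knockout replicate 3 and read 451.8 and 426.9 in knockout cortex, against 420.1, 401.4 and 447.6 in wild-type cortex (log2 change 0.05, limma adjusted p = 0.992). On rest arrays the 4 probe sets tested had log2 changes of -0.00 to 0.04 (limma adjusted p 0.945 to 0.996). Of these, 1422938_at read 163.6, 160.0 and 170.0 in knockout rest, against 157.8, 159.7 and 163.7 in wild-type rest. Its groups overlapped, with a 95% interval -0.23 to 0.30.

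Bcl2l1 encodes Bcl-xL, an antiapoptotic protein of maturing neurons. Probe set 1420888_at read 409.7, 364.3 and 418.4 in knockout cortex, against 413.2, 380.9 and 390.9 in wild-type cortex. The groups covered nearly the same range, with means of 397.5 ± 29.1 in knockout and 395.0 ± 16.5 in wild type (SD, n = 3 each) and a log2 change of 0.01 (95% interval -0.19 to 0.21, limma adjusted p = 0.98). Probe set 1420887_a_at read 165.0, 166.4 and 173.5 in knockout cortex, against 201.6, 226.0 and 163.6 in wild-type cortex. Wild-type replicate 3 was the lowest of the 6, and the log2 change of -0.20 did not pass (limma adjusted p = 0.51). On rest arrays 1420888_at read 436.0, 560.9 and 453.9 in knockout rest, against 645.7, 532.2 and 501.1 in wild-type rest. All 3 Bcl2l1 probe sets tested there had negative log2 changes, -0.38 to -0.06, and limma called 0 (adjusted p 0.535 to 0.925).

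Mcl1, a short-lived antiapoptotic protein, was read by 6 probe sets, all tested in cortex and in rest. In cortex all 6 had log2 changes above 0, 0.04 to 0.33, and limma called 0 (adjusted p 0.0958 to 0.895); for 1416880_at the sign turned with the sex-marker term and without some single arrays. Probe set 1437527_x_at read 640.8, 662.6 and 624.4 in knockout cortex, against 603.0, 584.4 and 649.5 in wild-type cortex, with overlapping groups (log2 change 0.07, 95% interval -0.10 to 0.24, limma adjusted p = 0.741). Probe set 1448503_at, picked after its values were seen, had the lowest p after Casp8. It read 387.6, 359.6 and 355.1 in knockout cortex, against 289.3, 303.0 and 276.9 in wild-type cortex, means of 367.4 ± 17.6 in knockout and 289.7 ± 13.1 in wild type (SD, n = 3 each). Its groups did not overlap, but its log2 change of 0.33 (SE 0.09, 95% interval 0.12 to 0.53) did not pass (unadjusted p = 0.00457, limma adjusted p = 0.0958). With Casp8, 3 Mcl1 probe sets made up the 4 of 15 members listed on all 6 A chip arrays whose knockout group was wholly higher, against 11.0% of all such probe sets, and those 3 share 1 gene. The 6 probe sets differed in pattern: 1416880_at read 413.4, 289.1 and 279.8 in knockout cortex, against 280.2, 249.4 and 409.0 in wild-type cortex, with overlapping groups. On rest arrays 5 of the 6 had log2 changes below 0, with a range of -0.21 to 0.01 and 0 called by limma (adjusted p 0.537 to 0.996). There 1448503_at read 513.5, 485.4 and 522.0 in knockout rest, against 561.8, 442.6 and 612.1 in wild-type rest, with the knockout arrays inside the wild-type range.

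Whether the knockout change differed between cortex and rest was tested as an interaction. Of 16 member probe sets shared by the A chip and the rest arrays limma called 0, against 0.0502% of all 11959 shared, and 3 had an unadjusted p under 0.05 (10.5% of all). The first was 1456005_a_at of Bcl2l11, with a difference of log2 changes (cortex minus rest) of 0.50 (95% interval 0.15 to 0.86, limma adjusted p = 0.29). The second was 1448503_at of Mcl1, with 0.40 (95% interval 0.08 to 0.72, limma adjusted p = 0.35). The third was Casp8, with 0.44 (95% interval 0.02 to 0.85, limma adjusted p = 0.449), so its rise was called in cortex alone but was not shown to differ from that in rest. Of 2 Bcl2 probe sets shared by the B chip and the rest arrays limma called 0 and 0 had an unadjusted p under 0.05, against 0% and 7.94% of all 6563. The fit treats cortex and rest samples as separate animals, which the labels do not settle.

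The wider pathway was read through 64 other genes of apoptosis, of which 8 had no single-gene probe set in the annotation used and were not analysed here. On the A chip 28 genes were tested through 41 probe sets, and limma called 0, against 3.02% of all probe sets; 3 had an unadjusted p under 0.05 (15.7% of all), with a median log2 change of 0.01. The lowest p was that of Cycs, which encodes cytochrome c. Its probe set 1422483_a_at read 1375.2, 1337.3 and 1445.1 in knockout cortex, against 1665.7, 1570.1 and 1612.8 in wild-type cortex (log2 change -0.22, limma adjusted p = 0.121), and 2 other Cycs probe sets had -0.03 and -0.00. Tnfrsf21, the death receptor DR6, came next, with log2 changes of 0.24 and 0.23 (limma adjusted p = 0.198 and 0.302). Over 5 genes of death receptors, ligands and adaptors, 6 probe sets had log2 changes of 0.10 to 0.39. Among them, picked as partners of caspase-8 after their values were seen, the adaptor Fadd had 0.10 (limma adjusted p = 0.823), and Cflar read 100.6, 117.8 and 65.5 in knockout cortex, against 76.9, 71.2 and 53.2 in wild-type cortex (0.39, limma adjusted p = 0.372).

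The remaining roles on the A chip held 0 genes called by limma. The 4 BH3-only genes tested, Bad, Bid, Bnip3 and Hrk, had log2 changes of -0.18 to -0.01 over 5 probe sets. For 7 genes of inhibitors of apoptosis and their antagonists, Xiap and Diablo among them, the range was -0.12 to 0.19. Casp2 was the one further caspase tested (log2 change -0.08, limma adjusted p = 0.808), and Bcl2l2, an antiapoptotic relative, had -0.10 (limma adjusted p = 0.755). On the B chip 7 genes were tested through 8 probe sets and limma called 0 (0.281% of all), with 0 at an unadjusted p under 0.05 (7.39% of all). The lowest p there were those of Bmf, a BH3-only gene (-0.26, limma adjusted p = 0.901), and Birc6, an inhibitor of apoptosis (-0.20, limma adjusted p = 0.947).

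On rest arrays 33 of these genes were tested through 59 probe sets, and 1 gene, Gsn, fell at all 4 of its probe sets, while 0 rose (0.313% of all probe sets called). An unadjusted p under 0.05 was found for 7 of the 59, against 10.5% of all. The list was chosen with earlier results of these data known, so counts of its genes or probe sets are no independent support. Gsn encodes gelsolin, an actin-severing protein that caspases cleave and that oligodendrocytes express. Probe set 1436991_x_at read 103.3, 108.0 and 117.7 in knockout rest, against 291.2, 263.6 and 312.1 in wild-type rest (log2 change -1.28, SE 0.12, limma adjusted p = 0.00507). Probe set 1415812_at read 204.0, 237.6 and 496.7 in knockout rest, against 1004.8, 870.4 and 973.1 in wild-type rest (-1.66, limma adjusted p = 0.0377). All knockout arrays lay below all wild-type arrays at each of the 4, against 8.19% of all probe sets listed on all 6 rest arrays, and the 4 share 1 gene. Their log2 changes ran from -1.66 to -1.19. Limma called 2 of the 4 with blanks at a low signal and 1 without a variance trend. It called 0 once the sex-marker term was added, where the log2 change was -1.19 at 1436991_x_at and -0.91 at 1415812_at. It called 1 without knockout replicate 1, knockout replicate 2 or wild-type replicate 1, and 2 without wild-type replicate 2 or wild-type replicate 3. In cortex limma called 0 Gsn probe sets, with log2 changes of 0.14 to 0.37. The highest, at 1456312_x_at, went with 128.8 on knockout replicate 2, against 44.0 and 43.8 on the other knockout arrays. Of 7 oligodendrocyte markers tested on rest arrays, from a list of 9, 2 fell and 0 rose, and 6 of them summed to 3678.0 to 10836.4 in knockout and 15889.2 to 17054.3 in wild-type rest. Limma called 36 of all 21407 probe sets down there. In cortex 4 of 5 oligodendrocyte markers fell, with the sums given above. The part of oligodendrocytes in the Gsn values was not tested.

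**Figure D4:**
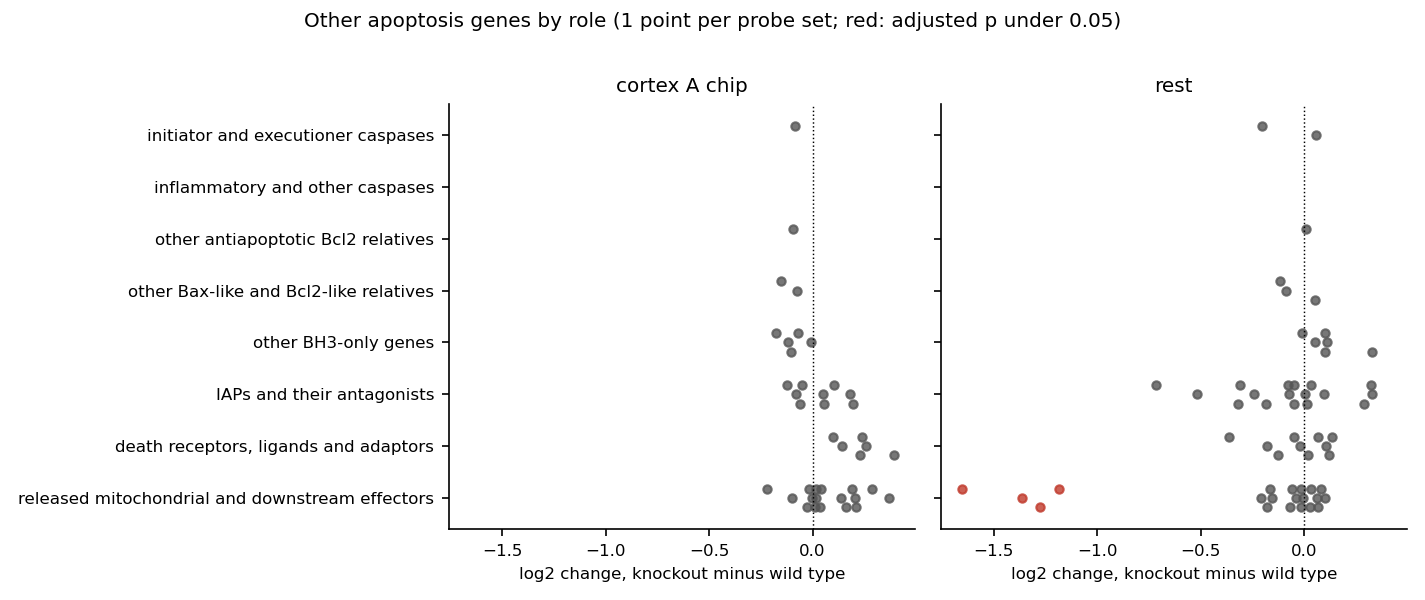
Log2 changes (x axis, knockout minus wild type) of the other apoptosis genes by role, 1 point per probe set tested, on the cortex A chip (left) and the rest arrays (right); red marks an adjusted p under 0.05. The 4 red points are the Gsn probe sets on rest arrays, from -1.66 to -1.19, and all A chip points lie between -0.22 and 0.39.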

How the data were processed

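Per the labels, total RNA was extracted with TRIZOL and labelled by the usual Affymetrix procedure. The deposited intensity values are linear probe set signals that the authors made with MAS5, per the submitters' processing notes; its settings and the reason for blank cells are not given in the sources used here. Members and gene lists were chosen with earlier results of these data known. Control features were dropped, arrays of a set were brought to the same mean (2% trimmed from either end) of the features present on all 6, and blanks were left out, not filled in. Probe sets listed on at least 2 arrays of each genotype were fitted as log2(signal + 16) with limma 3.58.1 under R 4.3.3 (lmFit, eBayes with a variance trend), knockout against wild type. The fits were tested on simulated data. Symbols came from the platform annotation, updated by gene identifier. Named genes are all members, other apoptosis genes called or with the 2 lowest p in a set, and the 3 genes most like the member with the lowest p. Alternatives were other scalings, offsets of 1 and 64, features listed on all 6 arrays, blanks at the 5th percentile of the array, no variance trend, a replicate block, a sex-marker term and leaving out each array. The design text names 3 animals of each genotype for cortex; nothing says so for rest, where p-values may measure technical spread. The number of arrays limits the precision.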

Additional observations from a re-analysis of the deposited data

How the results depend on the processing

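The number of members called on the A chip, 1 (Casp8), was 0 with quantile normalization, with blanks at a low signal, with a replicate block and with the sex-marker term, and 0 to 1 with 1 array left out. Casp8 was called in 7 of 16 alternatives and lost its call in 9. The number of members called on the B chip and on rest arrays was 0 under every alternative run. Of the other apoptosis probe sets, limma called 0 under every alternative run on either cortex chip; on rest arrays it called 4, and 2 with blanks at a low signal, 1 without a variance trend, 0 with the sex-marker term, 5 with a replicate block and 1 to 4 with 1 array left out. Over all probe sets the A chip count was 364 (82 with the sex-marker term, 186 to 327 with 1 array left out). The B chip count was 22 (11 with blanks at a low signal, 9 without a variance trend, 12 with a replicate block, 9 to 25 with 1 array left out). The rest count was 67 (103, 11 and 142 under those 3, 10 with the sex-marker term, 13 to 68 with 1 array left out). A shared replicate number was not taken to pair the arrays, since the labels do not tie it to an animal or day. Same-numbered correlations were -0.00876 to 0.0189 (A chip), 0.0721 to 0.159 (B chip) and 0.0227 to 0.251 (rest). Those of different numbers reached 0.0427 on the A chip and 0.143 on rest arrays. On the B chip, however, each array correlated best with its own number, with -0.164 to 1.82e-05 for different numbers, a hint from the data and not from the design. A replicate block ended the Casp8 call (limma adjusted p = 0.0781) and no other member call was there to lose.

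Values of uncalled members changed sign in places. With the sex-marker term the log2 change was -0.123 for Mcl1 1416880_at (A chip), 0.323 for Bcl2l11 1435448_at (rest), 0.0741 for Mcl1 1437527_x_at (rest), -0.0075 for Casp9 1437537_at (rest), -0.152 for Bcl2 1443837_x_at (rest), 0.336 for Apaf1 1450223_at (rest), 0.054 for Mcl1 1456243_x_at (rest) and 0.0478 for Mcl1 1456381_x_at (rest). With median centring the log2 change was -0.0072 for Bcl2l1 1420888_at (A chip), -0.0016 for Apaf1 1450223_at (A chip) and 0.0134 for Bcl2 1437122_at (rest). With quantile normalization the log2 change was -0.0388 for Apaf1 1450223_at (A chip), 0.0242 for Bcl2l1 1426191_a_at (rest) and 0.0379 for Bcl2 1437122_at (rest). With blanks at a low signal the log2 change was -0.707 for Bcl2 1457687_at (B chip) and 0.5004 for Bcl2l1 1426191_a_at (rest). Without scaling the log2 change was 0.0065 for Bcl2 1437122_at (rest). With 1 array left out, A chip log2 changes ranged -0.061 to 0.066 for Apaf1 1450223_at, -0.154 to 0.0208 for Apaf1 1452870_at, -0.0296 to 0.0668 for Bcl2l1 1420888_at, -0.0586 to 0.144 for Bcl2l11 1435448_at, -0.270 to 0.115 for Casp9 1437537_at and -0.1001 to 0.270 for Mcl1 1416880_at. On rest arrays they ranged -0.237 to 0.0778 for Apaf1 1450223_at, -0.0028 to 0.202 for Apaf1 1452870_at, -0.0944 to 0.317 for Bak1 1418991_at, -0.0314 to 0.0327 for Bcl2 1437122_at, -0.142 to 0.0858 for Bcl2 1443837_x_at, -0.0256 to 0.104 for Bcl2 1457687_at, -0.240 to 0.0852 for Bcl2l11 1435448_at, -0.0417 to 0.0854 for Casp9 1437537_at, -0.138 to 0.129 for Mcl1 1416881_at, -0.0962 to 0.0337 for Mcl1 1437527_x_at, -0.205 to 0.0222 for Mcl1 1448503_at, -0.135 to 0.0223 for Mcl1 1456243_x_at and -0.092 to 0.0265 for Mcl1 1456381_x_at. The causes of these changes were not tested.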
